A study of Mus musculus with 16 samples.

Results

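The mouse replication-dependent histone genes are the short, mostly intronless genes of the histone clusters that supply linker histone H1 and the core histones H2A, H2B, H3 and H4 while DNA is copied. Their members here are all protein-coding genes whose GENCODE M21 symbol starts with Hist1h, Hist2h, Hist3h or Hist4h and whose gene ID has a row in the deposited expression table. The rule finds 56 of the 24452 genes of the table, with 6 for H1, 16 for H2A, 15 for H2B, 6 for H3 and 13 for H4. By chromosome, 47 lie on chromosome 13, 6 on chromosome 3, 2 on chromosome 11 and 1 on chromosome 6. A further 11 of the 67 M21 genes with such symbols have no row and were not analysed here, namely Hist1h2bh, Hist1h2bm, Hist1h3d, Hist1h3f, Hist1h3g, Hist1h3h, Hist1h3i, Hist2h2aa1, Hist2h2aa2, Hist2h2bb and Hist2h3c1.

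The study followed RNA in mouse embryonic stem cells leaving pluripotency. Cells labelled Suz12-KO (genotype Suz12[-/-]) and E14-WT cells (wild type) were grown in serum with leukaemia inhibitory factor (LIF) on gelatin and sampled at 0 h, then at 24, 48 and 72 h after a switch to medium with 1 µM all-trans retinoic acid and no LIF. Suz12 belongs to the core of Polycomb repressive complex 2, the enzyme that places H3K27 methylation. The labels give 16 samples, 2 for each of the 8 groups, while the table holds 1 column per group, so no spread between cultures could be computed. The kind of Suz12 mutation, whether the mutant line is 1 clone and its parental cells are not stated in the sources used here. Libraries were made from total RNA after removal of small RNAs and ribosomal RNA and were not selected for poly(A) tails.

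Replication-dependent histone mRNAs are the metazoan mRNAs that end in a conserved stem-loop in place of a poly(A) tail. The stem-loop is bound by the protein encoded by Slbp and positions the U7 snRNP and cleavage factors, and the mRNAs accumulate in S phase and are degraded when replication stops. Transcription of the clusters depends on Npat, a coactivator activated by cyclin E and Cdk2, and in many H2B promoters on the octamer bound by the POU factor Oct1 (Pou2f1). A few members (Hist1h1t, Hist1h2aa, Hist1h2ba) are known for expression in male germ cells.

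The stem-loops are shown because the member RNAs were read without need of a tail, and because they mark the mRNA end of the members whose levels the results below turn on. The 26 bases around each, read from the GENCODE M21 transcripts (GRCm38) in the sense of the mRNA, hold the 16 bases of the stem and loop in capitals.
Hist1h1e (chr13:23621777-23621802, minus strand): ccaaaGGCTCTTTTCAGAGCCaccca
Hist3h2ba (chr11:58949344-58949369, plus strand): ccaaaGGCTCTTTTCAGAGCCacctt
Hist2h3c2 (chr3:96238480-96238505, minus strand): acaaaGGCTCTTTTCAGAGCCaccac
Hist4h4 (chr6:136803993-136804018, minus strand): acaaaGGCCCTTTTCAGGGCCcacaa
Hist1h1t (chr13:23696520-23696545, plus strand): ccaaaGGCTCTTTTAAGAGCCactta
Hist1h4i (chr13:22040961-22040986, minus strand): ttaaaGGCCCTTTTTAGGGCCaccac
Hist2h2ac (chr3:96220413-96220438, minus strand): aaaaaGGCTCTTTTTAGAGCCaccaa
Hist1h4d (chr13:23581945-23581970, plus strand): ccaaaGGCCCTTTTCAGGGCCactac
A search for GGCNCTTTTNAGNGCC after the stop codon found a match in 35 of the 56 members, and a match anywhere in a transcript in 45 of all 21901 protein-coding genes (0.205%), these 35 included. All 9 H4 matches had the stem GGCCC with GGGCC, and all 26 matches of the other types had GGCTC with GAGCC. Several gene models end at or near the stop codon, as for Hist1h1a, Hist1h1b, Hist1h2aa and Hist1h2ba, and a missing match says only that these letters are not in the annotated transcript. Other models run far past the stem-loop, by 2445 bases in Hist4h4, 377 in Hist2h3c2 and 169 in Hist3h2ba, so that reads from longer transcripts can be counted to these genes.

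Promoter sequence from RefSeq (GRCm38.p6) was matched for 52 of the 56 members, from 250 bases before to 50 bases after the annotated start. Hist1h2bc, Hist2h2be, Hist1h3a and Hist2h4 had no match. Windows of 60 bases are shown for the 3 members Hist1h2ba, Hist2h2ac and Hist3h2ba, which passed a test below, and for Hist1h2bb, the most abundant H2B gene, with the octamer ATTTGCAT, read on either strand, in capitals in the first 3 and CCAAT and TATAAA (either strand) in capitals in the last.
Hist1h2ba (chr13:23934287-23934346, minus strand): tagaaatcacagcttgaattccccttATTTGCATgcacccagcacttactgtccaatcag
Hist1h2bb (chr13:23746618-23746677, plus strand): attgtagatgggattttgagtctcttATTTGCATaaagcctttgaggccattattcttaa
Hist2h2ac (chr3:96221047-96221106, minus strand): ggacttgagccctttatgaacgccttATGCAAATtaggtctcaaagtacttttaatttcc
Hist3h2ba (chr11:58948821-58948880, plus strand): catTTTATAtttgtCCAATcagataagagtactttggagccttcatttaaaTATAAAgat
The octamer was present in 7 of 16 H2A promoters and 4 of 13 H2B promoters and in none of the matched H1, H3 and H4 promoters, against 1.74% of all 32851 promoters searched on both strands. These 11 promoters hold 8 distinct sites, since 3 sites lie in the matched promoters of an H2A and of an H2B gene at once. The sites of Hist1h2ac (chr13:23684082-23684089) and Hist2h2ac (chr3:96221073-96221080) also lie shortly before an unmatched H2B gene. These are Hist1h2bc, with its M21 start at 23684199, and Hist2h2be, at 96221119, so the H2B count leaves them out. The germ-cell genes Hist1h2ba and Hist1h2aa are transcribed away from each other and share the octamer at chr13:23934313-23934320. CCAAT was found in all 40 matched promoters of H1, H2A, H2B and H3 genes and in 3 of 12 H4 promoters, against 37.4% of all promoters. TATAAA was found in 31 of the 52 member promoters (59.6%), against 13.6% of all promoters. These matches describe letters in a window and say nothing of binding.

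Worked back from the deposited values, the columns held between 24731176 (WT at 48 h) and 32153765 (Suz12-KO at 48 h) reads. Of these, 35029 to 92070 fell on the members. RPKM (reads per kilobase of gene, relative to library size) were scaled with 1 median-of-ratios factor for each column, written as scaled RPKM below. This removed 1 shift, the same for every gene, of 0.42 in Suz12-KO and 0.63 in WT cells between 72 and 0 h (log2). Without this division the same rows of 72 h against 0 h look higher by these amounts. Between 0 and 72 h Gm42418 went from 63.0% to 56.6% of the reads in Suz12-KO and from 65.5% to 59.5% in WT cells. Its part in the shift was not tested. Suz12 RNA was not lower at every time in the columns labelled Suz12-KO, with 3.10, 2.58, 1.98 and 1.20 scaled RPKM at 0, 24, 48 and 72 h, against 4.22, 2.65, 1.19 and 0.927 in WT. Reads over the whole gene do not check a mutation of unknown kind, and line names below are those of the labels. Hprt had 30.1, 34.7, 19.4 and 16.1 RPKM in Suz12-KO columns and 0.0300, 0.0830, 0.0627 and 0 RPKM in WT columns, so the lines also differ outside Suz12. The 8 stem cell markers were all at 1 RPKM or more at 0 and 24 h in both lines, and their summed RPKM was 584, 424, 89.9 and 18.4 in Suz12-KO and 442, 338, 66.7 and 11.3 in WT cells. The 7 primitive and parietal endoderm markers summed to 25.6, 27.3, 127 and 265 RPKM in Suz12-KO and 8.70, 7.35, 25.97 and 56.3 RPKM in WT cells, and their part in the histone values was not tested. The 7 fibroblast markers summed to at most 8.05 RPKM, and none of them reached 1 RPKM at 0 or 24 h, where 2 to 6 of the 7 were at 0.

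The histone mRNAs were abundant throughout, and their total was higher in the columns labelled Suz12-KO than in WT at 0 and 24 h and alike in the lines at 48 and 72 h. The 56 genes summed to 3757, 4246, 3521 and 3152 scaled RPKM in Suz12-KO cells at 0, 24, 48 and 72 h. The WT sums were 2919, 3243, 3383 and 3169 scaled RPKM. At 0, 24, 48 and 72 h the ratios of Suz12-KO to WT were 1.29, 1.31, 1.04 and 0.995. Over 72 h the sum moved by -0.25 in Suz12-KO and 0.12 in WT cells (log2 of scaled RPKM). As deposited, the sums were 3146, 5085, 4235 and 3539 RPKM in Suz12-KO and 2031.5, 3157, 3581.5 and 3401 RPKM in WT cells, so that without scaling both lines were higher at 72 h than at 0 h. Of the reads on protein-coding genes, the members took 0.916%, 1.14%, 0.957% and 0.788% in Suz12-KO cells. In WT cells they took 0.645%, 0.870%, 0.913% and 0.827%. These shares need no factor and give the lines the same order as the scaled sums at all 4 times. Lars2 alone took 1361658 of 6292655 protein-coding reads at 0 h and 1424688 of 7762115 at 72 h in Suz12-KO cells. In WT cells it took 1380006 of 5432733 and 1250665 of 7334139, and its part in the shares was not tested. In cultures, fewer cells in S phase and less histone RNA per cell cannot be told apart.

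Type by type, H4 and H1 gave the largest sums and H3 the smallest among the genes with a row. The genes without a row include Hist1h3d, Hist1h3f, Hist1h3g, Hist1h3h, Hist1h3i and Hist2h3c1, but no H1 or H4 gene. The H3 sum thus leaves out H3 genes, and its rank cannot be read as that of all H3 mRNA. H4 genes summed to 1321, 1335, 1109 and 1025 scaled RPKM in Suz12-KO cells and 957, 1023, 1124 and 1046.5 in WT cells. The corresponding H1 values were 977, 1218, 966 and 826 in Suz12-KO cells and 723, 879, 863 and 768 in WT cells. H2A summed to 749, 849, 744 and 679 in Suz12-KO and 633, 694, 689 and 681 in WT cells. H4 stood apart in Suz12-KO cells in that its sum at 24 h was close to that at 0 h (log2 0.02) and then lower by 0.37 at 72 h, the lowest of the types. H2B summed to 408, 502, 402.5 and 365 in Suz12-KO and 362, 389, 432 and 417 in WT cells. H3 summed to 303, 342, 299 and 257 in Suz12-KO and 244, 258, 275 and 255 in WT cells. H2B was the type with the lowest Suz12-KO to WT ratio at 72 h (0.876), and H1 the one with the highest (1.08). Sums have no test, since there is 1 value per column.

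**Figure D1:**
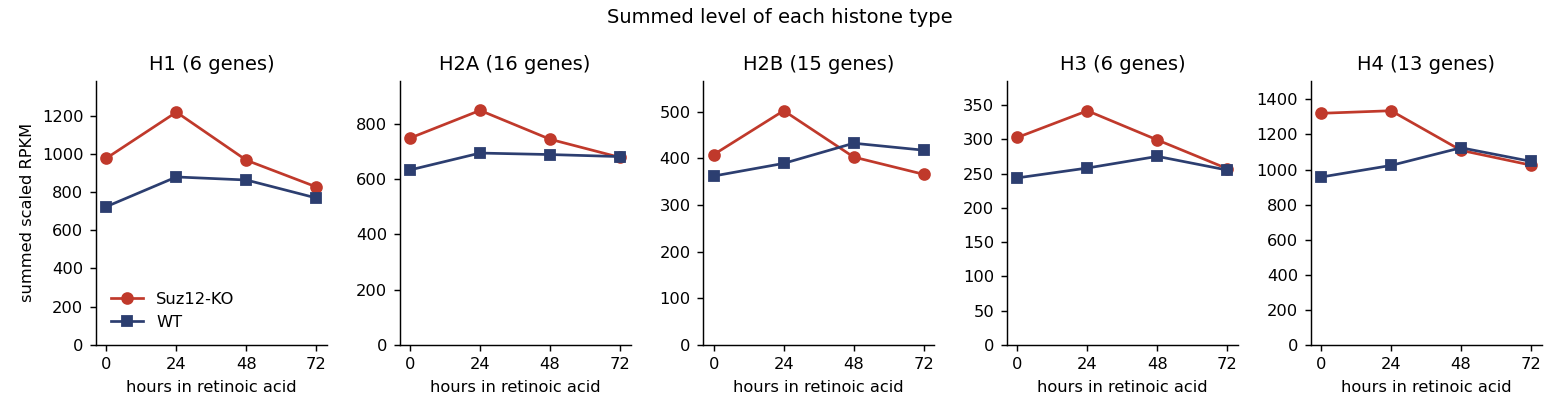
Summed scaled RPKM (y axis, from 0) of the members of each histone type against hours in retinoic acid (x axis), with Suz12-KO as red circles and WT as blue squares, 1 column per point and no error. At 0 and 24 h the Suz12-KO sum lies above the WT sum in all 5 types, and at 72 h the sums of H2A, H3 and H4 nearly coincide.

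Among linker histones, Hist1h1a (subtype H1.1; chr13:23763666-23764406) supplied the most mRNA. It had 562, 661, 499.7 and 389 scaled RPKM in Suz12-KO cells and 398, 475, 439 and 372 in WT cells. Hist1h1b (H1.5) had 191, 238, 213 and 209 in Suz12-KO cells and 169.7, 167, 176 and 186 in WT cells. Both genes were higher in Suz12-KO at all 4 times. For both, the 72 h minus 0 h difference did not pass limma (-0.31 ± 0.17 SE, adjusted p = 0.166 for Hist1h1a, and 0.13 ± 0.14 SE, adjusted p = 0.474 for Hist1h1b, log2). Hist1h1e (H1.4; chr13:23620629-23622558) followed another course, with 60.0, 134, 118 and 104 scaled RPKM in Suz12-KO cells and 38.4, 91.5, 121 and 94.2 in WT cells. All 6 later values of Hist1h1e lay above both values at 0 h. Hist1h1e rose by 1.20 ± 0.19 (log2, SE) at 24 h (limma adjusted p = 0.0117), 1.30 ± 0.19 at 48 h (limma adjusted p = 0.00354) and 1.03 ± 0.19 at 72 h (limma adjusted p = 0.00545), averaged over the lines. Its 24 h call is lost without the Suz12-KO column at 24 h (adjusted p = 0.0993). The M21 exon of Hist1h1e overlaps exons of Hist1h2be by 450 bases and the pseudogene Gm11398 by 320 bases on the same strand. The length inferred for its RPKM, 748 bases, is shorter than that exon (1930 bases).

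The makeup of H1 mRNA differed with time in both lines. Hist1h1a made up 57.6%, 54.3%, 51.7% and 47.1% of the H1 RPKM in Suz12-KO cells and 55.0%, 54.1%, 50.9% and 48.5% in WT cells. Hist1h1e made up 6.15%, 10.96%, 12.2% and 12.5% in Suz12-KO cells and 5.31%, 10.4%, 14.01% and 12.3% in WT cells. These shares need no column factor, and in both lines Hist1h1a was lowest and Hist1h1e above its 0 h share at 72 h. They depend on the lengths used, since Hist1h1a averaged 52.4% of the H1 RPKM over the 8 columns but 37.5% of the H1 reads, and Hist1h1d (H1.3) 7.74% of RPKM but 28.3% of reads. Hist1h1c (H1.2) had 78.6, 81.2, 65.5 and 57.9 scaled RPKM in Suz12-KO cells and 53.7, 70.4, 62.04 and 58.0 in WT cells. Hist1h1d had 79.6, 90.8, 67.7 and 66.9 in Suz12-KO cells and 62.02, 68.7, 63.4 and 57.4 in WT cells, and neither gene passed the test in any contrast over 72 h or between lines.

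H2A mRNA came from many genes, and 9 of the 16 encode 1 identical translation, which took 73.0% to 76.9% of the H2A RPKM in every column. The most abundant was Hist1h2ad, with 155, 162, 152 and 141 scaled RPKM in Suz12-KO cells and 145, 154, 146 and 139 in WT cells. Hist1h2ab had 149, 156, 130.3 and 112 in Suz12-KO cells and 124, 123, 123 and 128 in WT cells. Hist1h2ag had 82.5, 83.2, 73.1 and 62.8 in Suz12-KO cells and 66.9, 67.7, 72.3 and 73.1 in WT cells. In Suz12-KO cells all 3 were lowest at 72 h, whereas in WT cells Hist1h2ab and Hist1h2ag were highest there, and the 72 h minus 0 h difference passed for none of them. Apart from the germ-cell gene Hist1h2aa, the other 11 tested H2A genes ranged in level from 5.22 scaled RPKM (Hist1h2ao, WT at 0 h) to 73.7 (Hist1h2ak, Suz12-KO at 24 h). Hist2h2ac (chr3:96220361-96220880), which encodes its own H2A sequence and has the octamer shown above in its promoter, was the only member to pass in the comparison of the lines. It had 47.3, 44.0, 50.1 and 55.8 scaled RPKM in Suz12-KO cells and 38.1, 32.1, 36.4 and 42.2 in WT cells. All 4 Suz12-KO values exceeded all 4 WT values, as also in Hist1h1b, Hist1h2bc, Hist1h4a and Hist1h4c, which did not pass. For Hist2h2ac the average difference was 0.40 ± 0.08 (log2, SE, limma adjusted p = 0.0414). That call is lost whenever any 1 of the 8 columns is left out (adjusted p 0.0552 to 0.197).

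**Figure D2:**
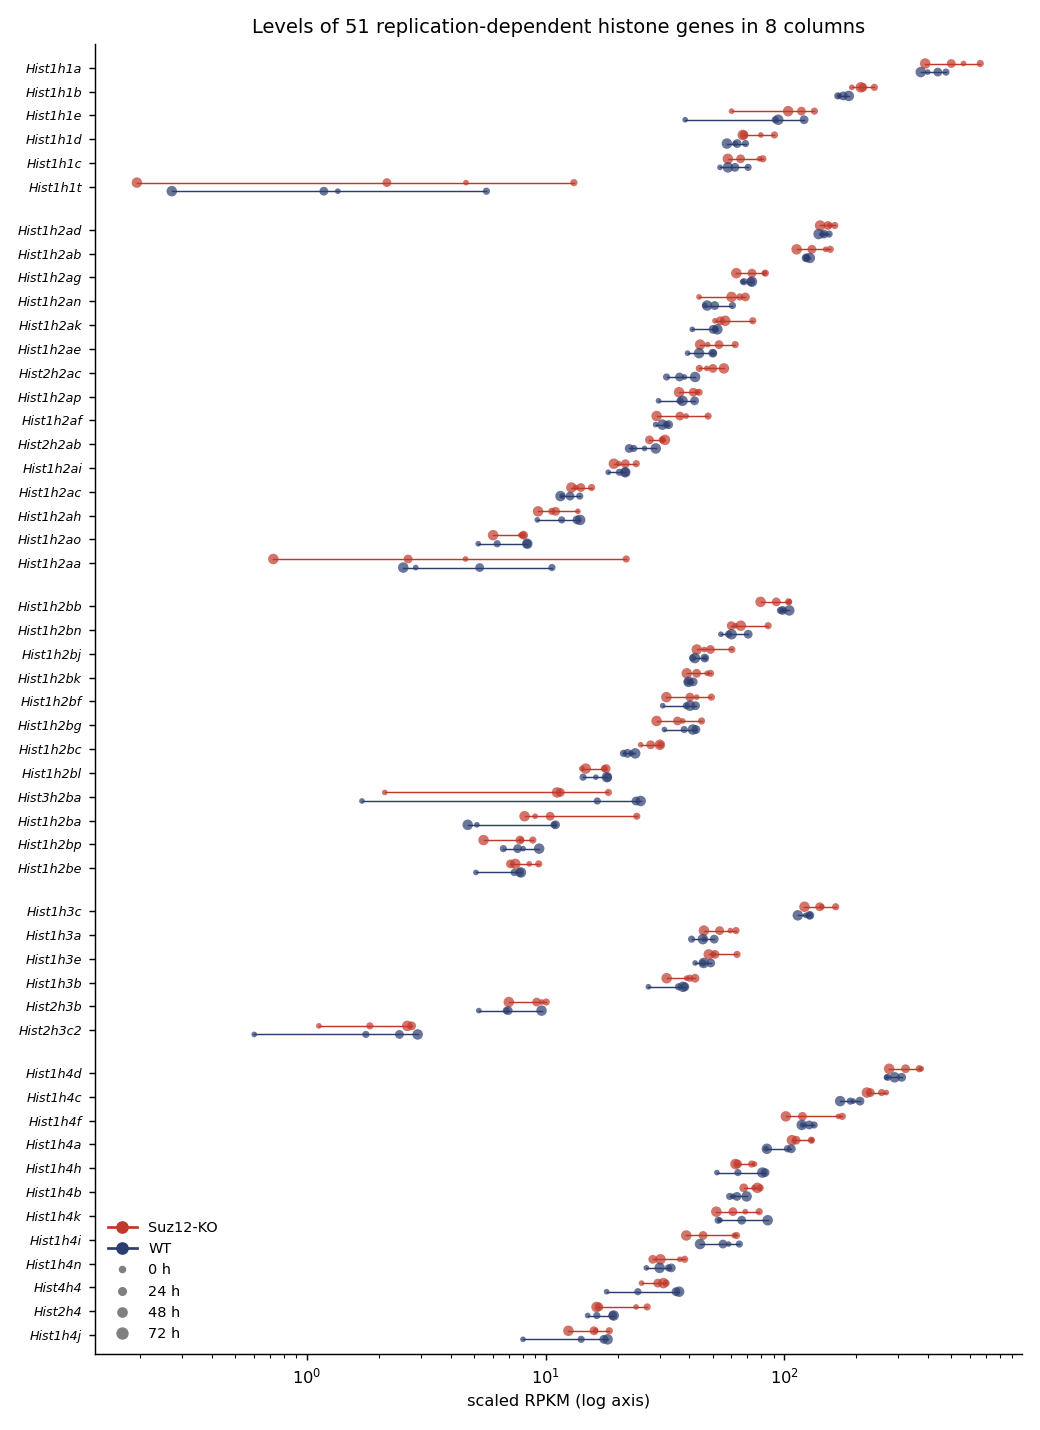
Scaled RPKM (x axis, logarithmic) of the 51 tested members in the 8 columns, grouped by type (H1, H2A, H2B, H3 and H4 down the page) and sorted by level. Red is Suz12-KO and blue is WT, larger points are later times, and the line joins the lowest and the highest value. Most members span less than 2-fold within a line, while Hist1h1e, Hist1h1t, Hist1h2aa, Hist3h2ba, Hist1h2ba, Hist2h3c2, Hist1h4j and Hist4h4 span more.

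Of the 12 tested H2B genes, Hist3h2ba alone passed at 72 h, while the germ-cell gene Hist1h2ba, given with its kind below, passed at 24 h. Hist1h2bb had 105, 104, 92.5 and 79.4 scaled RPKM in Suz12-KO cells and 99.4, 96.2, 98.3 and 105 in WT cells. Hist1h2bn had 62.3, 85.5, 59.9 and 65.7 in Suz12-KO cells and 54.2, 58.3, 70.5 and 60.0 in WT cells. Hist1h2bj had 46.2, 60.2, 49.0 and 42.9 in Suz12-KO cells and 46.5, 41.2, 46.4 and 42.2 in WT cells. These were the 3 most abundant H2B genes, and none passed the test at 72 h. Hist3h2ba (chr11:58948920-58949533), an H2B gene of a small cluster on another chromosome whose stem-loop and promoter are shown above, had 2.12, 18.3, 11.5 and 11.2 scaled RPKM in Suz12-KO cells and 1.70, 16.4, 23.9 and 24.99 in WT cells, from 30, 360, 277 and 197 reads in Suz12-KO cells and 19, 279, 389 and 441 in WT cells. It rose by 2.90 ± 0.38 (log2, SE) at 24 h (limma adjusted p = 0.00698) and by 2.85 ± 0.38 at 72 h (limma adjusted p = 0.00156). Its 24 h call is lost without the Suz12-KO column at 24 h (adjusted p = 0.0663). The lines were alike at 0 and 24 h and then parted, with a Suz12-KO minus WT difference of 0.25, 0.15, -1.02 and -1.13 (log2) at the 4 times, and the average difference did not pass (-0.44 ± 0.27 SE, limma adjusted p = 0.375). At 72 h its counting intervals (95% Poisson, counting error only) were 9.66 to 12.8 in Suz12-KO and 22.7 to 27.4 in WT cells. The neighbouring H2A gene Hist3h2a, below the filter, had 0.0441, 0.223, 0.585 and 0.567 scaled RPKM in Suz12-KO cells and 0.112, 0.424, 0.729 and 0.638 in WT cells, and its model overlaps Trim17 by 708 bases on the same strand. The pseudogene Hist3h2bb-ps, which is no member, had 0.189, 2.04, 1.17 and 1.061 in Suz12-KO cells and 0.120, 1.10, 2.22 and 1.97 in WT cells. All 3 were lower at 0 h than at any later time in both lines. In Suz12-KO and WT cells these 0 h values rest on only 2 and 4 reads for Hist3h2a and 2 and 1 for Hist3h2bb-ps.

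H3 mRNA was read on 6 genes with 2 translations. The H3 genes without a row, named above, are not in the shares below. Hist1h3a alone encodes H3.1 in this list, and the other 5 encode 1 identical protein that differs from it at 1 residue. Hist1h3a made up 19.6%, 18.3%, 17.9% and 17.9% of the H3 RPKM in Suz12-KO cells and 18.9%, 15.8%, 18.4% and 17.8% in WT cells. Hist1h3c had 143, 164, 140.5 and 121 scaled RPKM in Suz12-KO cells and 123, 127, 128 and 114 in WT cells. Hist1h3a had 59.4, 62.7, 53.5 and 46.0 in Suz12-KO cells and 46.2, 40.8, 50.8 and 45.5 in WT cells. Both were highest at 24 h in Suz12-KO cells and at 48 h in WT cells. Hist1h3e had 50.5, 63.3, 51.2 and 48.2 in Suz12-KO cells and 42.3, 45.5, 49.1 and 45.9 in WT cells. The member that changed was the scarce Hist2h3c2 (chr3:96238108-96239127), with 1.12, 1.83, 2.74 and 2.63 scaled RPKM in Suz12-KO cells and 0.601, 1.76, 2.44 and 2.91 in WT cells, from 11 to 108 reads per column. It rose by 1.21 ± 0.18 (log2, SE) at 48 h (limma adjusted p = 0.00322) and 1.29 ± 0.18 at 72 h (limma adjusted p = 0.00166). Of its 50-base words, 36.5% occur in no transcript of another gene. How reads from the other words, which match other genes too, were counted was not known here.

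All 13 H4 genes encode 1 identical protein, and 3 of them had the highest RPKM. Together they made up 61.3%, 59.7%, 60.4% and 58.3% of the H4 RPKM in Suz12-KO cells and 60.7%, 57.9%, 57.3% and 55.3% in WT cells. By reads, with no division by length, they made up 49.5%, 46.9%, 47.3% and 44.7% in Suz12-KO cells and 49.4%, 45.6%, 43.5% and 41.3% in WT cells, so a share above 50% depends on the lengths used. Hist1h4d (chr13:23581598-23582735) had 374, 367, 322 and 274 scaled RPKM in Suz12-KO cells and 267, 271, 309.8 and 289.5 in WT cells. Hist1h4c had 267, 255, 229 and 221 in Suz12-KO cells and 194, 189, 207 and 171 in WT cells. Hist1h4f had 168, 175, 119 and 101 in Suz12-KO cells and 119, 133, 127 and 118 in WT cells. In Suz12-KO cells each was lowest at 72 h, and none of the 3 passed the test of 72 h against 0 h. Hist4h4 (chr6:136801553-136804415), the only member on chromosome 6, had 25.2, 31.9, 29.5 and 31.1 scaled RPKM in Suz12-KO cells and 18.0, 24.3, 35.1 and 36.2 in WT cells. It rose by 0.64 ± 0.22 at 72 h (log2, SE, limma adjusted p = 0.0427), which is lost in 7 of the 8 fits that leave out 1 column (adjusted p up to 0.236). Hist1h4i (chr13:22040636-22041362) had 61.6, 63.0, 45.6 and 38.8 in Suz12-KO cells and 58.3, 64.7, 55.3 and 44.3 in WT cells. It fell by 0.53 ± 0.13 at 72 h (log2, SE, limma adjusted p = 0.0150), whereas as deposited its difference was -0.01 (adjusted p = 0.970). Without the Suz12-KO column at 0 h or at 72 h the adjusted p of Hist1h4i was 0.0790 and 0.0770.

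The 3 members known from male germ cells peaked at 24 h in Suz12-KO cells, and Hist1h1t and Hist1h2aa did so in WT cells as well. Hist1h1t, the testis linker histone (chr13:23695814-23696725), had 4.64, 13.1, 2.16 and 0.194 scaled RPKM in Suz12-KO cells and 1.35, 5.65, 1.18 and 0.271 in WT cells. Its 72 h values rest on 5 reads in Suz12-KO and 7 in WT cells, with intervals of 0.0629 to 0.452 and 0.109 to 0.559. Hist1h1t rose by 1.57 ± 0.37 (log2, SE) at 24 h (limma adjusted p = 0.0301) and fell by 2.07 ± 0.37 at 72 h (limma adjusted p = 0.00427). Its 24 h call is lost in 5 of the 8 fits that leave out 1 column (adjusted p 0.0672 to 0.189) and with no filter (adjusted p = 0.0869), while the 72 h call holds in all 8 fits. Hist1h2ba had 9.03, 24.1, 10.4 and 8.15 in Suz12-KO cells and 5.15, 10.8, 10.997 and 4.71 in WT cells, and rose by 1.19 ± 0.27 at 24 h (limma adjusted p = 0.0272). This call is also lost in 5 of the 8 fits that leave out 1 column (adjusted p 0.0526 to 0.173) and with no filter (adjusted p = 0.0769). Hist1h2aa had 4.61, 21.7, 2.65 and 0.723 in Suz12-KO cells and 2.85, 10.6, 5.29 and 2.53 in WT cells, and its 24 h difference of 1.93 ± 0.57 did not pass (limma adjusted p = 0.0561). At 24 h each of the 3 was 2-fold or more apart, higher in Suz12-KO than in WT, and no average difference between the lines passed (limma adjusted p = 0.136 for Hist1h1t, 0.112 for Hist1h2ba and 0.855 for Hist1h2aa). The 4 germ cell markers in the table (Ddx4, Dazl and others of a list of 6) summed to 2.07, 4.42, 3.44 and 1.01 RPKM in Suz12-KO cells and 1.34, 2.61, 2.37 and 1.51 in WT cells, also highest at 24 h, and their part in these values was not tested.

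**Figure D3:**
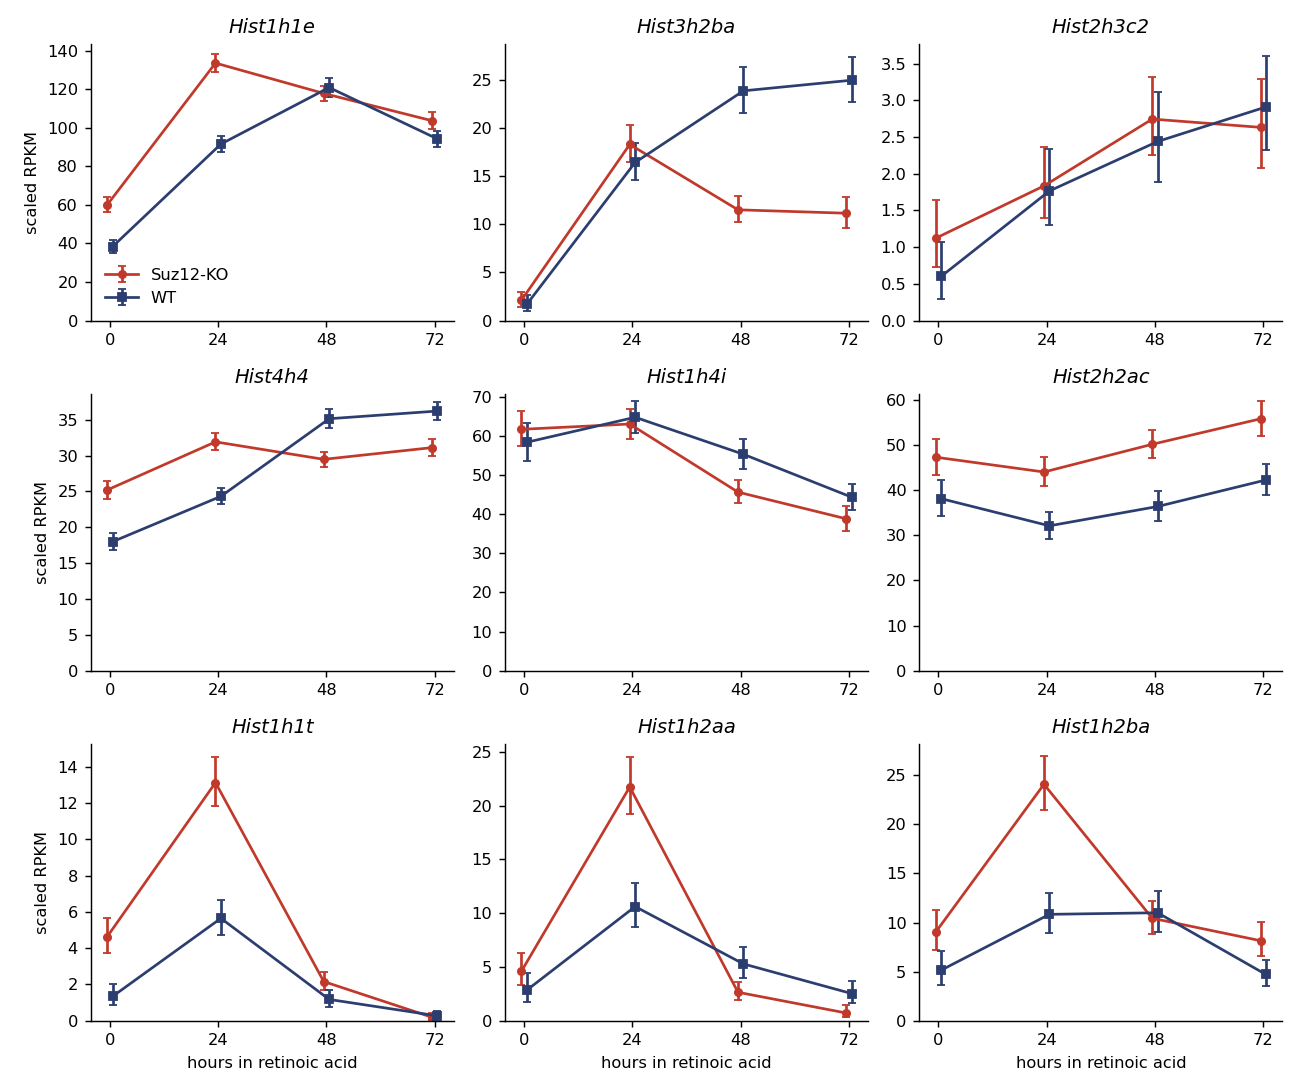
Scaled RPKM (y axes, from 0) against hours in retinoic acid (x axes) for 9 members, with Suz12-KO as red circles and WT as blue squares. Error bars are 95% Poisson intervals for counting error only. Hist3h2ba parts between the lines after 24 h (11.2 in Suz12-KO against 24.99 in WT at 72 h), Hist2h2ac is higher in Suz12-KO at all 4 times, and Hist1h1t, Hist1h2aa and Hist1h2ba reach their highest Suz12-KO value at 24 h.

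Most members differed little over 72 h, whereas most of the genes tested differed more. Averaged over the lines, 6 of the 51 members with at least 1 RPKM in a column passed at 72 h (limma adjusted p under 0.05), with Hist1h1e, Hist3h2ba, Hist2h3c2 and Hist4h4 higher and Hist1h1t and Hist1h4i lower. Of all 10860 genes tested, 58.6% passed, so the members' 11.8% lies below the background. The median difference of the members was 0.02 and their median absolute difference 0.16, against 0.57 for all genes (log2). At 24 h, 5 of 51 passed, all higher (Hist1h1e, Hist1h1t, Hist1h2ba, Hist2h3c2 and Hist3h2ba). The background was 23.8% in either direction, with 1272 of all 10860 genes higher and 1310 lower. The 24 h call of Hist2h3c2 is lost in 5 of the 8 fits that leave out 1 column (adjusted p 0.0660 to 0.130), and without the Suz12-KO column at 24 h none of the 5 calls holds. At 48 h, 3 passed, all higher (Hist1h1e, Hist2h3c2 and Hist3h2ba), against 46.9% in either direction (2603 genes higher and 2495 lower). These contrasts share the 0 h columns. With RPKM as deposited, 19 members passed at 72 h, 18 of them higher, and the median difference was 0.52. The p-values measure how far time differences vary between the 2 lines, not the spread between cultures.

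Within each line the members' median difference at 72 h was small, and its sign differed between the lines. In Suz12-KO cells the median 72 h minus 0 h difference was -0.27, with 38 of 51 members lower. In WT cells it was 0.15, with 37 of 51 higher (log2 of scaled RPKM). As deposited the medians were 0.15 in Suz12-KO and 0.76 in WT cells, so the direction in Suz12-KO cells turns with the scaling and the order of the lines does not. In Suz12-KO cells 1 member was at least 2-fold higher at 72 h (Hist3h2ba), against 16.7% of all genes, and 2 were at least 2-fold lower (Hist1h1t and Hist1h2aa), against 13.7%. In WT cells 4 members were at least 2-fold higher (Hist3h2ba, Hist2h3c2, Hist1h1e and Hist1h4j), against 16.1%, and 1 lower (Hist1h1t), against 11.2%. Hist1h4j, named here because of its values, had 16.2, 18.5, 15.9 and 12.4 scaled RPKM in Suz12-KO cells and 8.03, 14.1, 17.5 and 18.2 in WT cells. At 24 h the same count was 5 members in Suz12-KO cells, against 6.13% of all genes, and 6 in WT cells, against 4.5%. At 48 h it was 2 members in Suz12-KO cells, against 11.7%, and 5 in WT cells, against 12.4%, and no member was 2-fold lower at 24 or 48 h.

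The comparison of the lines gave small differences in 1 direction at the early times. At 0 h the median Suz12-KO minus WT difference of the members was 0.36 (log2), with 47 of 51 higher. At 24 h it was 0.38 with 49 higher, at 48 h 0.05 with 30 higher and at 72 h -0.07 with 22 higher. All genes had medians between -0.01 and 0.01 at these times, and their middle 50% ran from -0.21 to 0.19 at 0 h. All 6 H1, all 6 H3 and all 12 tested H4 genes were higher in Suz12-KO than in WT at 0 h. As deposited the medians were 0.62, 0.67, 0.24 and -0.01, in the same order. These are single columns without a test, and only Hist1h1t was 2-fold apart at 0 h (1.48), where 3.16% of all genes were at least 2-fold higher. At 24 h, 3 members were at least 2-fold higher (Hist1h1t, Hist1h2aa and Hist1h2ba), against 2.03%. At 48 h Hist3h2ba was at least 2-fold lower in Suz12-KO, against 2.98%, and at 72 h Hist1h2aa and Hist3h2ba were, against 3.01%.

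Averaged over the 4 times, 1 of 51 members passed between the lines (Hist2h2ac, higher in Suz12-KO), against 5.59% of all genes. At an unadjusted limma p under 0.05 there were 12 of 51 members, a share close to that of all genes (2608 of 10860). The median difference was 0.17 with 42 of 51 members above 0, against -0.01 for all genes. By type the medians were 0.29 for H1, 0.16 for H2A, 0.12 for H2B, 0.21 for H3 and 0.16 for H4. As deposited, 8 members passed, all higher in Suz12-KO. The test takes the spread of the difference over the 4 times as its error, so a difference present at 0 and 24 h alone adds to that error.

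**Figure D4:**
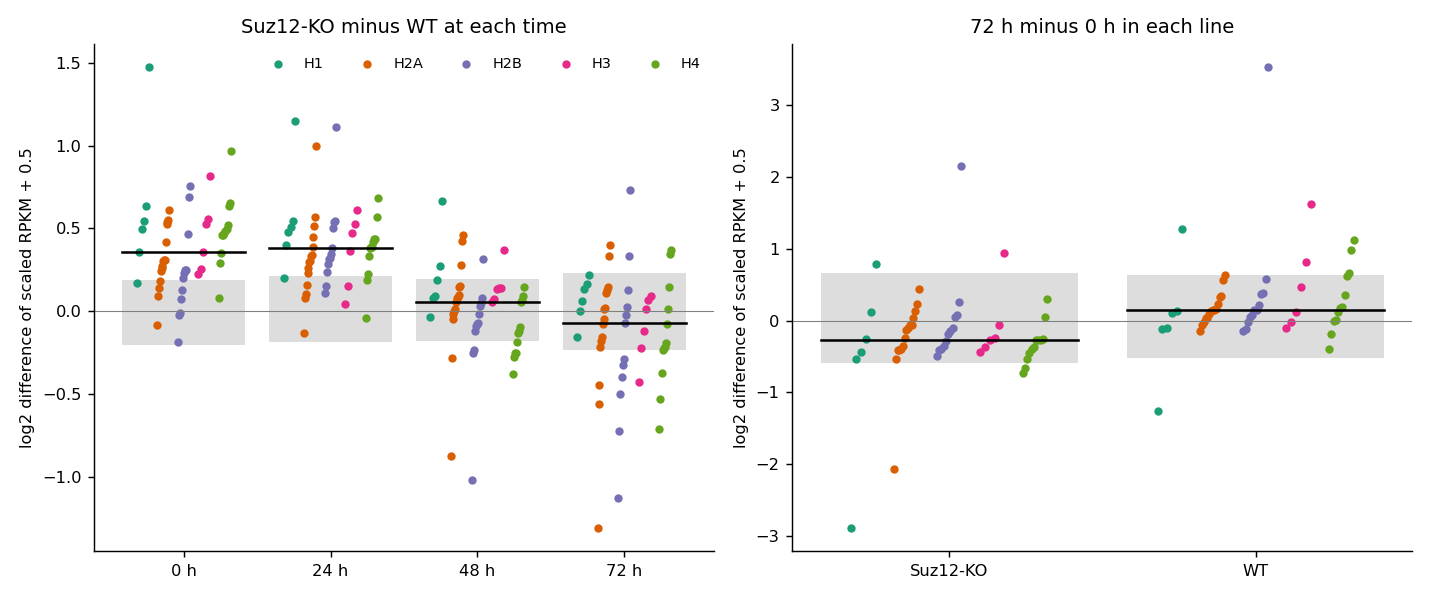
Left, log2 difference Suz12-KO minus WT (y axis) of the 51 tested members at each time, and right, log2 difference 72 h minus 0 h in Suz12-KO and in WT. Each point is a gene coloured by histone type, the black line is the members' median and the grey band the middle 50% of all 10860 genes. The members' median lies above the grey band at 0 and 24 h (0.36 and 0.38) and inside it at 48 and 72 h.

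The authors' deposited table marks genes that differ between 72 and 0 h in each line, without a direction or threshold. In Suz12-KO cells 4 of the 56 members are marked in the authors' deposited table (7.14%), against 19.9% of all genes, namely Hist1h1t and Hist1h2aa, lower at 72 h in scaled RPKM, and Hist3h2a and Hist3h2ba, higher. In WT cells the authors' deposited table marks 7 of 56 (12.5%), against 18% of all genes, with Hist1h1t lower and Hist1h1e, Hist1h4j, Hist2h3c2, Hist3h2a, Hist3h2ba and Hist4h4 higher. Hist1h1t, Hist3h2a and Hist3h2ba are marked in both lines.

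Of all 10860 genes tested, 29.7% passed higher and 28.9% passed lower at 72 h, and the related gene lists are read against these shares. Among 33 genes of the S-phase replication machinery, 27 fell (81.8%) and none rose at 72 h (limma adjusted p under 0.05), with a median difference of -0.76. Pcna, the replication clamp, had 13.7, 9.81, 7.75 and 4.52 scaled RPKM in Suz12-KO cells and 14.1, 9.30, 8.24 and 6.15 in WT cells and fell by 1.31 ± 0.14 (log2, SE, limma adjusted p = 0.00073). Cdt1, which licenses origins, fell by 1.49 ± 0.11 (limma adjusted p = 0.000262). As deposited the median of these 33 genes was -0.26 and that of the 51 histone genes 0.52. A column factor moves both lists alike, so the gap between them stays nearly the same by construction and is no check of it. Of 12 genes for histone gene transcription, 7 fell and none rose, with a median of -0.68, or -0.26 as deposited. The 58.3% that passed is close to the 58.6% of all genes, while all 7 lay in 1 direction. Npat had 2.02, 1.49, 1.08 and 0.462 scaled RPKM in Suz12-KO cells and 1.81, 1.43, 1.03 and 0.959 in WT cells and fell by 1.03 ± 0.20 (limma adjusted p = 0.00654). Ccne1, which encodes cyclin E1, fell by 1.29 ± 0.17 (limma adjusted p = 0.00149). Mcm2, Lsm10, Lsm11 and Zfp473 belong to more than 1 list, and all the lists were chosen with earlier results of these data known.

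Of 20 genes for histone mRNA 3′ end processing, export, translation and decay, 11 fell and 1 rose (Sympk, a scaffold of the cleavage complex), with a median of -0.46 in scaled RPKM and 0.045 as deposited. The share that passed (60.0%) is close to that of all genes, and as deposited 10 of the 20 lay above 0 and 10 below. Slbp, the stem-loop binding protein gene, had 13.3, 13.3, 10.8 and 8.46 scaled RPKM in Suz12-KO cells and 13.1, 10.3, 10.7 and 9.54 in WT cells and fell by 0.53 ± 0.14 (limma adjusted p = 0.0212). Mif4gd, which encodes an Slbp-interacting translation factor, fell by 1.11 ± 0.10 (limma adjusted p = 0.000504) and was lower in Suz12-KO than in WT on average (-0.41, limma adjusted p = 0.0357). Zc3h18, which encodes a zinc finger protein that associates with the cap-binding complex, was the other gene of this list to pass between the lines, higher in Suz12-KO (0.38, limma adjusted p = 0.0431). Of 19 histone chaperones and supply genes, 9 fell and 2 rose (Dnajc9 and Rbbp7), with a median of -0.27, or 0.19 as deposited. The share that passed (57.9%) is again close to that of all genes, and as deposited 11 of the 19 lay above 0. Hat1, which acetylates new H4, fell by 1.27 ± 0.11 (limma adjusted p = 0.000431), and Chaf1b, a subunit of the chromatin assembly factor CAF-1, by 0.98 ± 0.11 (limma adjusted p = 0.000766). Between the lines, Ipo4, a histone importer, was higher in Suz12-KO (0.54, limma adjusted p = 0.0163), with no other gene of that list passing.

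Most replication-independent histone genes have mRNAs with poly(A) tails and can supply variants outside S phase. Of the 11 tested, 5 rose at 72 h (H2afy, H3f3b, H2afy2, H2afv and H1f0) and 3 fell (Cenpa, H2afz and H2afx), with a median of 0.52, or 0.96 as deposited. That is 45.5% higher and 27.3% lower, in a list of few genes. H1f0, the linker histone of slowly dividing and differentiated cells, had 3.93, 10.6, 9.11 and 8.38 scaled RPKM in Suz12-KO cells and 2.26, 10.2, 10.7 and 10.3 in WT cells and rose by 1.49 ± 0.24 (log2, SE, limma adjusted p = 0.00304). H3f3b, which encodes H3.3, had 24.2, 36.9, 47.5 and 40.9 in Suz12-KO cells and 25.2, 37.0, 50.5 and 48.8 in WT cells and rose by 0.84 ± 0.11 (limma adjusted p = 0.00165). H3f3a, which encodes the same protein, did not pass (0.11 ± 0.11, limma adjusted p = 0.387). H2afz, which encodes the variant H2A.Z, fell by 1.06 ± 0.10 (limma adjusted p = 0.000525).

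**Figure D5:**
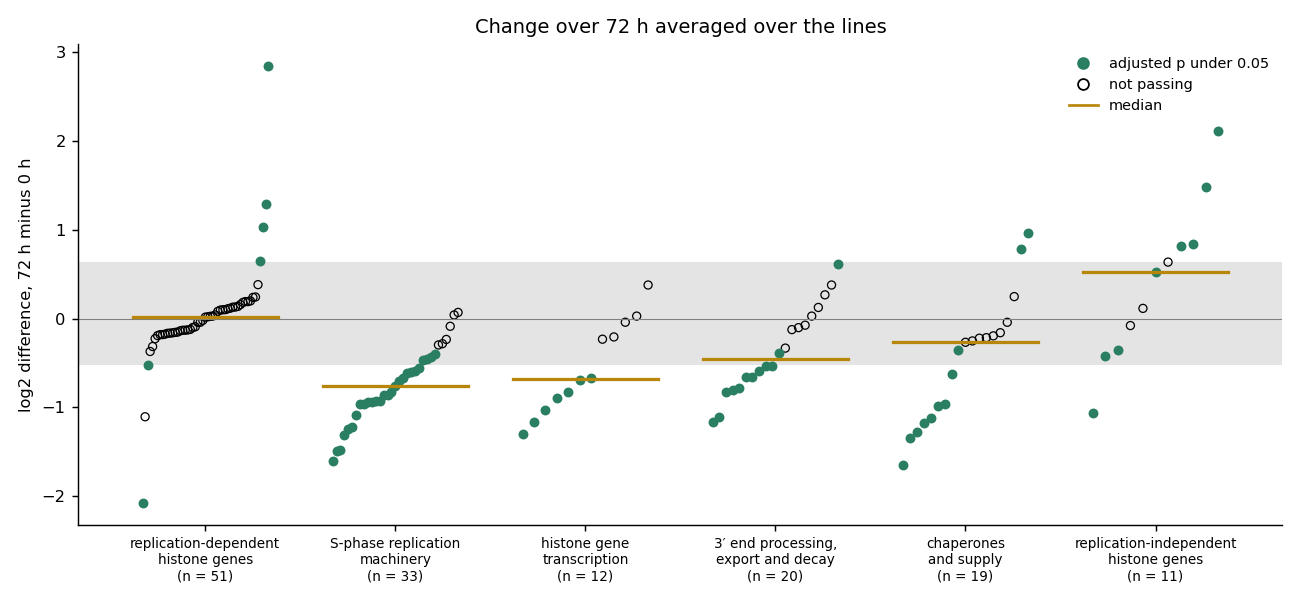
Log2 difference 72 h minus 0 h averaged over the lines (y axis) for the members and 5 related gene lists (x axis), 1 point per gene. Filled points passed limma at an adjusted p under 0.05, the gold line is each list's median and the grey band the middle 50% of all 10860 genes. The histone genes sit around 0 (median 0.02), the S-phase genes mostly below the band (median -0.76) and the replication-independent histone genes higher (median 0.52).

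Because copies are nearly identical, reads that match several genes limit what single members show, and sums too if such reads were dropped. How they were counted was not known here. The median member had 47.6% of its 50-base words in no transcript of another gene, 28 of 56 had at least 50%, and 3 had none of their own (Hist1h2bq, Hist1h2br and Hist2h3b). Among the 26 tested members with at least 50% of words unique, 5 passed at 72 h and the median difference was -0.13. Among the 25 with less, 1 passed and the median was 0.08. The Suz12-KO minus WT medians were 0.21 and 0.15. Hist1h1a, Hist1h1b and Hist1h1t are fully unique and Hist4h4 91.9% unique. Strand use in counting is not stated per the labels, so reads of the opposite-strand transcripts annotated over most H2A genes cannot be separated.

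An H2A and an H2B gene start within 176 to 306 bases of each other on opposite strands in 12 pairs. In the 9 pairs with both genes tested, the ratio of H2A to H2B mean level (scaled RPKM per length) ran between 0.274 (Hist1h2ah and Hist1h2bk) and 7.18 (Hist1h2an and Hist1h2bp), with a median of 1.27 and the H2A gene higher in 5. Hist2h2ac averaged 43.2 scaled RPKM over the 8 columns, while its partner Hist2h2be, fully unique in sequence, averaged 0.199. Besides Hist2h2be, the members below the filter were Hist3h2a, Hist1h2bq, Hist1h2br and Hist1h4m, at most 0.729 scaled RPKM in any column.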

How the data were processed

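The authors' deposited table gives RPKM for 24452 Ensembl genes in 8 columns, 1 per line and time, and TRUE or FALSE marks, coded here as other values, for 72 h against 0 h. The tools TopHat, featureCounts and DESeq2 and the build GRCm38 (mm10) are named per the submitters' processing notes, without versions or roles. Neither labels nor headers state how replicates were pooled. Symbols came from GENCODE M21 by gene ID. The members, lists, rules and tests were chosen with earlier results of these data known.

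Read counts were worked back from the RPKM, with column totals fitted to the steps between values. For 14150 genes the M21 exon length gave whole reads in all 8 columns. For the other 10302 genes a length was chosen that made the reads whole. All 153803 values above 0 are thus whole within 0.01 reads partly by construction, which is no check of the chosen lengths. These reads gave exact Poisson 95% intervals, which cover counting error only. No count test was run on them. The fit uses the 8 columns in place of 16 libraries, which the table does not hold singly.

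RPKM were divided by median-of-ratios factors (log2 -0.52 to 0.27) and genes with at least 1 RPKM in at least 1 column kept (10860). The model was fitted with limma 3.58.1 in R 4.3.3 (empirical Bayes with a trend) to log2(scaled RPKM + 0.5) with line and time as factors, leaving 3 residual degrees of freedom, and p-values were Benjamini-Hochberg adjusted over all kept genes at 0.05. The fold on this scale understates changes of low genes. The code was tested on simulated data. Single columns were compared at 2-fold without a test. Values in all columns are given for the 3 members per type with the highest mean RPKM, the members that passed, the germ-cell members, and a few added after their values were seen (Hist1h1c, Hist1h1d, Hist1h4j, Hist3h2a). The alternatives were RPKM as deposited, factors from protein-coding genes without the histone genes, pseudocounts 0.1 and 1, other filters, each column left out, and sums without the top member.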

Additional observations from a re-analysis of the deposited data

Results flagged for a closer look

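Hist1h4d, the H4 gene with the highest RPKM, differed between 72 and 0 h by -0.45 in the Suz12-KO columns and by 0.11 in the WT columns (log2 of scaled RPKM), a gap of -0.56 between the lines. It was flagged because the scaled values of the lines moved in opposite directions and it is among the genes chosen above for their level. Members outside that choice did so by more, as Hist1h4j (gap -1.50) and Hist2h3b (-1.25). The medians of the 51 tested members also had opposite signs, -0.27 in Suz12-KO and 0.15 in WT cells, so these directions are not particular to Hist1h4d. With RPKM as deposited, Hist1h4d differed by -0.02 in Suz12-KO and by 0.74 in WT cells, a gap of -0.76. The size of its change in Suz12-KO cells thus rests on the scaling. The difference between the lines was not tested, since each line has 1 column per time.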

How the results depend on the processing

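No paired analysis was possible because the columns carry no replicate numbers and each group has 1 column. With RPKM as deposited, 1308 genes passed between the lines (607 with scaling), 8 histone genes did (1 with scaling) and 19 histone genes passed at 72 h (6 with scaling). The 24 h contrast then gave 4420 genes (2582) and 29 histone genes (5), and the 48 h contrast 30 histone genes (3). Histone genes at least 2-fold apart as deposited numbered 4 at 48 h and 5 at 72 h against 0 h in Suz12-KO (2 and 3 with scaling), 15 and 13 in WT (5 and 5), and 3 at 0 h and 0 at 48 h for Suz12-KO against WT (1 and 1). With no filter the comparison of the lines gave 132 genes and 0 histone genes (1 with the filter), and the 24 h contrast 1639 genes and 2 histone genes. Factors from protein-coding genes, or a pseudocount of 1, left 1 histone gene 2-fold apart at 48 h in Suz12-KO. A pseudocount of 0.1 gave 2 between the lines at 0 h, and a pseudocount of 1 gave 0 at 48 h.

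Leaving out single columns gave 65 to 555 genes between the lines and 0 histone genes in all 8 fits, 5035 to 5980 genes and 5 to 6 histone genes at 72 h, 285 to 2517 genes and 0 to 5 histone genes at 24 h, and 2240 to 5201 genes and 3 to 5 histone genes at 48 h. All 5 histone calls at 24 h are lost without the Suz12-KO column at 24 h. Log2 sums of 72 h over 0 h, averaged over the lines, became 0.45 (H1), 0.51 (H2A), 0.55 (H2B), 0.44 (H3) and 0.41 (H4) as deposited, and 0.18 (H1), 0.084 (H2B) and -0.0035 (H3) without the top member, against -0.08, -0.02, 0.02, -0.09 and -0.12 in that order with scaling and all members. Hist1h1e, Hist3h2ba, Hist2h3c2 and Hist1h1t passed at 72 h under every setting run. The cause of the other differences was not tested. Depth limits Hist1h1t, Hist1h2aa and Hist2h3c2, with as few as 5, 8 and 11 reads in a column.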
